A study of Mus musculus with 4 samples.

Results

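Muscle-restricted ubiquitin ligases of the atrophy programme, together with the Foxo transcription factors that act on it, were examined in adult heart muscle cells of mice. The set held 9 genes of the 20886 named on the arrays: the F-box genes Fbxo32, Fbxo30 and Fbxo40, the RING finger genes Trim63, Trim54 and Trim55, and Foxo1, Foxo3 and Foxo4. They were taken by name, through the RefSeq accession of each probe, and Murf1 is another name of Trim63. In all 13 probes were found, of which 11, for 8 genes, passed a filter on dim probes. The cells came from 10-week-old male mice bred by crossing αMHC promoter-driven CRE mice with tetO-Yamanaka's OSKM factor mice, in which the 4 reprogramming factors are meant to be induced in cells that use the αMHC promoter. Control mice were treated with PBS for 2 days and the others with doxycycline, by intraperitoneal injection, for 2 days. There were 2 arrays in each group, and the replicates were not stated to be separate animals, so the tests rest on the spread of these samples alone, and that spread may be technical. Both groups came from the same cross and no array came from mice given doxycycline without the factors. Drug and factors cannot be told apart.

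Ubiquitin ligases choose the proteins that the proteasome breaks down. Fbxo32 (atrogin-1, or MAFbx) is the substrate-binding part of an SCF ligase, and Trim63 (MuRF1) is a RING ligase of the sarcomere whose relatives Trim54 (MuRF3) and Trim55 (MuRF2) bind microtubules and titin. Foxo factors enter the nucleus when insulin and PI3K-Akt signalling is low, and they are known to activate Fbxo32 and Trim63 in wasting skeletal and heart muscle. Fbxo30 (MUSA1) is a ligase subunit restrained by BMP signalling, and Fbxo40 is a muscle F-box protein that targets Irs1.

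Each level below is the log2 of a probe's processed signal minus the log2 of the 75th percentile of that array, and each difference is doxycycline minus control on that scale. A level of one probe cannot be set against that of another. All 10 heart muscle markers were well above background on every array, among them Myh6 and Tnnt2. Summed levels here add up the markers of a list after each level is taken out of log2. For the heart muscle markers they were 4587 and 5314 in the controls and 3337 and 4135 after doxycycline. Control array 1 stood apart. By the median of the list, it read 0.72 lower than control array 2 for those markers, 1.56 higher for 9 endothelial, 1.67 higher for 9 fibroblast and 1.65 higher for 8 of 9 macrophage markers. The summed levels of the endothelial list were 585 and 190 in the controls and 188 and 244 after doxycycline. Those of the fibroblast list were 218 and 67.1 against 77.4 and 83.3, a sum carried by Dcn. The median difference of the fibroblast list was -2.49, or -1.47 without control array 1. Of its 9 markers 6 (Col1a1, Col1a2, Col3a1, Lum, Postn and Dpt) read below both controls on both doxycycline arrays (20.8% of all genes). Summed levels of the macrophage list were 24.0 and 8.62 against 9.50 and 7.98. Those of the smooth muscle and pericyte list were 68.7 and 59.8 against 29.5 and 21.3. On control array 2 that sum was carried by Acta2, whose levels were 4.89 and 5.43 against 3.33 and 2.05. The median difference of that list was -0.51, or 0.065 without control array 1. Red cell markers (2 of 5 tested) summed to 68.0 and 12.8 against 8.93 and 10.3. On the same scale, out of log2, the 1 adipocyte marker tested of 5 was at 0.156 and 0.108 against 0.580 and 0.595. Of the neutrophil list, 4 of 5 markers were tested, with summed levels of 72.1 and 38.6 against 51.2 and 54.2, a sum carried by Csf3r (difference -0.325). The other 3, S100a8, S100a9 and Retnlg, read 12.7-fold, 9.55-fold and 5.03-fold higher after doxycycline. Their groups did not overlap (14.5% of all genes lay above in this way), and the list median was 2.79. Of 7 skeletal muscle markers 3 were tested (9.11 and 20.7 against 28.3 and 10.6), while Myh4, Myh1, Mylpf and Actn3 did not pass the filter. The part of these cells and of control array 1 in the results was not tested. In the paragraphs that follow, list medians and the differences of most named genes are also given without that array. In such bulk samples, fewer cells of a type and less RNA per cell cannot be told apart.

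Fbxo32, Trim54 and Fbxo40 lay higher after doxycycline on average, by 2.16-fold to 2.56-fold, with both doxycycline arrays above both control arrays. Trim63, the other ligase that marks atrophy, read within the control range after doxycycline, and so did Foxo1. None of the 8 genes passed limma's test over all genes, as none of the 12542 genes did (0% of genes called in either direction at an adjusted p under 0.05). At an unadjusted p under 0.05, Fbxo32 and Trim54 were counted and no member was lower, where 398 genes (3.17%) were higher and 488 (3.89%) lower.

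**Figure D1:**
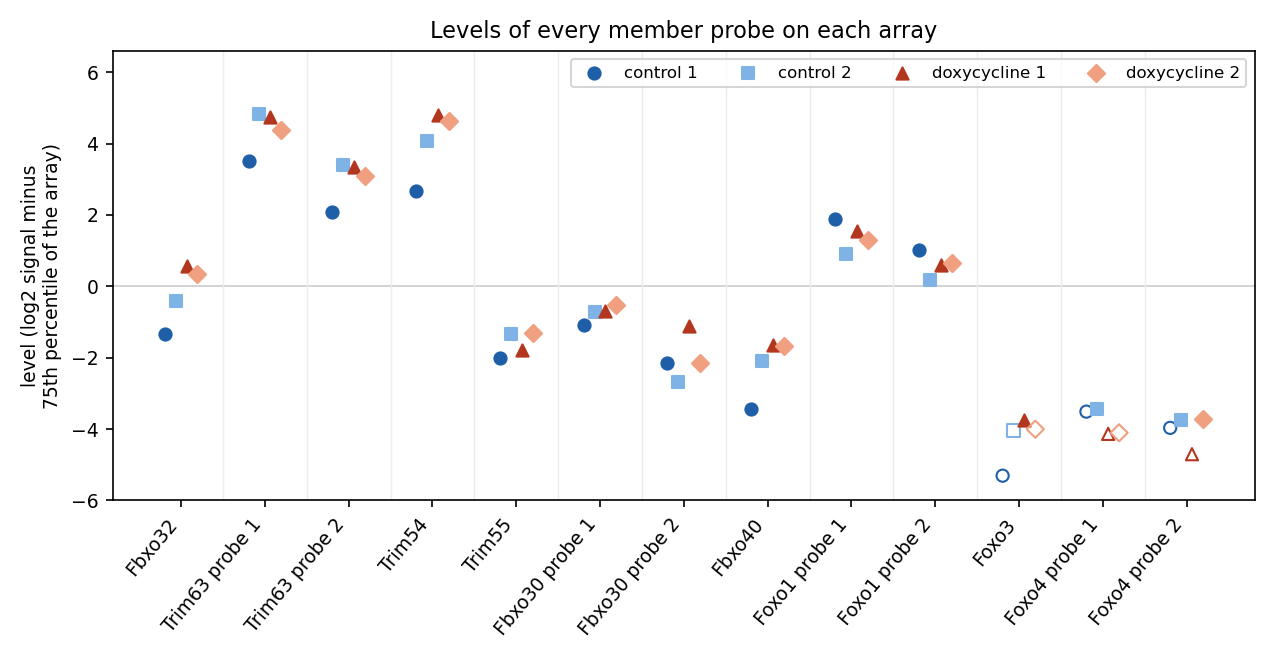
Levels of the 13 probes of the atrophy ligases and Foxo factors on each of the 4 arrays (y axis: log2 signal minus the 75th percentile of the array; x axis: probe); filled symbols were well above background and open ones were not. Both red symbols lie above both blue ones for Fbxo32, Trim54, Fbxo40, both Fbxo30 probes and Foxo3, whose probe was well above background on doxycycline array 1 alone.

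The probe of Fbxo32 was spotted 10 times on each array, which limits the noise within an array. Its processed signal was 44.2 and 128.6 in the controls and 370.1 and 245.4 after doxycycline. As levels these were -1.34 and -0.41 against 0.58 and 0.35. The groups did not overlap, and the gap between the control arrays, 0.93, was wider than that between the doxycycline arrays, 0.23. The 10 spots varied by an SD of 0.19 on control array 1 and of 0.04 to 0.07 on the others, so the gap between control arrays was larger than the spread between spots. The difference was 1.34 ± 0.47 (SE, n = 2 per group, 2.53-fold), with a 95% interval of 0.22 to 2.46 and an adjusted p of 0.6003 by limma. Without control array 1 it was 0.87.

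Trim63 read differently from Fbxo32. Its brighter probe had signals of 1285 and 4807 in the controls and 6690 and 4008 after doxycycline, or levels of 3.52 and 4.81 against 4.75 and 4.38. Both doxycycline arrays lay between the control arrays, which were 1.30 apart. The second probe gave the same picture, with levels of 2.08 and 3.39 against 3.34 and 3.09. The difference was 0.40 ± 0.54 for the first probe (SE, adjusted p = 0.960 by limma) and 0.48 ± 0.53 for the second (SE, adjusted p = 0.947 with every probe fitted on its own). The 95% interval of the first, -0.88 to 1.68, includes differences as large as that of Fbxo32, so these arrays do not show that Trim63 and Fbxo32 differed. Without control array 1 the direction turned, to -0.25.

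The relatives of Trim63 did not read alike. Trim54 had signals of 709.3 and 2848 in the controls and 6954 and 4728 after doxycycline, or levels of 2.66 and 4.06 against 4.81 and 4.62. Its groups did not overlap, but the control arrays were 1.40 apart, more than the difference of 1.35 ± 0.55 (SE, 2.56-fold, 95% interval 0.04 to 2.66, adjusted p = 0.684 by limma). Without control array 1 the difference was 0.65. Trim55 had a low signal, 27.9 and 67.7 against 72.3 and 77.7, and levels of -2.01 and -1.33 against -1.78 and -1.31. Its groups overlapped. The difference of 0.13 ± 0.45 (SE, adjusted p = 0.986 by limma) became -0.21 without control array 1, -0.11 without doxycycline array 2 and -0.08 with normexp background correction.

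Of the F-box genes beside Fbxo32, Fbxo40 read -3.43 and -2.11 in the controls and -1.65 and -1.66 after doxycycline. The doxycycline arrays were 0.01 apart and above both controls. The difference was 1.11 ± 0.53 (SE, 2.16-fold, 95% interval -0.16 to 2.38, adjusted p = 0.786 by limma). Its signals were dim, 10.4 and 39.7 against 79.2 and 60.8, and the difference was 0.45 without control array 1 and 0.17 with normexp background correction. Fbxo30 was measured by a pair of probes. The brighter one read -1.08 and -0.71 against -0.68 and -0.53, a difference of 0.29 ± 0.40 (SE, adjusted p = 0.960 by limma) that was 0.11 without control array 1. The second read -2.15 and -2.69 against -1.11 and -2.14, a difference of 0.80 ± 0.50 (SE, adjusted p = 0.905 with every probe fitted on its own). For both Fbxo30 probes the groups did not overlap, by a margin of 0.03 for the first. The second was also close, at -2.138 on doxycycline array 2 against -2.154 on control array 1.

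**Figure D2:**
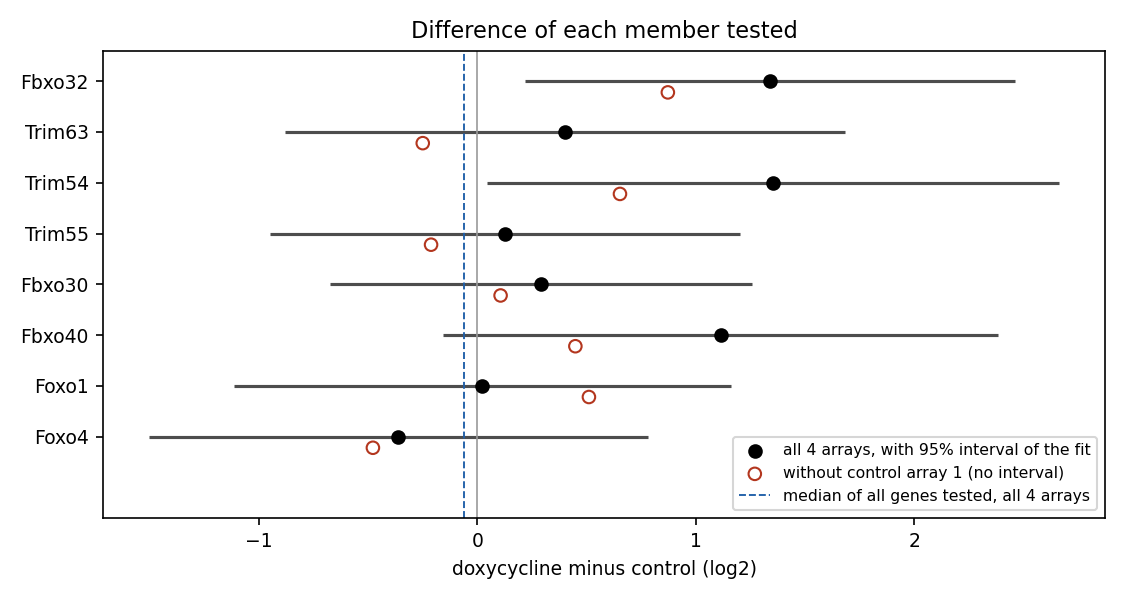
Difference of each of the 8 genes tested (x axis: doxycycline minus control, log2), as a black point with the 95% interval of the limma fit, n = 2 arrays per group; red circles give the difference without control array 1. The intervals of Fbxo32 and Trim54 lie above 0, none passed after adjustment over all genes, and the red circles of Trim63 and Trim55 lie on the other side of 0.

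Promoter windows of 250 bases before the start were held for 6 of the 9 genes in the RefSeq promoter table (GRCm38.p6), in 7 windows. No window was held for Fbxo32, Trim55 or Foxo4, so their promoters were not searched. Those of Trim63, Trim54 and Fbxo40 are shown because the first is a known direct target of Foxo and glucocorticoid receptor factors whose level did not leave the control range, and the others belong to 2 of the genes whose groups did not overlap. The window of Fbxo30, whose groups did not overlap either, held no match and is not printed. Capitals mark matches, on either strand, to the Foxo-binding motif GTAAACA, the steroid receptor half-site AGAACA and the E-box CANNTG, which muscle bHLH factors bind.
Trim63, chr4:134314870-134315119, plus strand: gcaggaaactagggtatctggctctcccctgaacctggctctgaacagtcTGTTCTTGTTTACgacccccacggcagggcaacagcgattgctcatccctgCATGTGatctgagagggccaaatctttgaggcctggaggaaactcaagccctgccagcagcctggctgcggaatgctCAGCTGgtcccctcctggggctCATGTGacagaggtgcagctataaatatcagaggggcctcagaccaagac
Trim54, chr5:31116362-31116611, plus strand: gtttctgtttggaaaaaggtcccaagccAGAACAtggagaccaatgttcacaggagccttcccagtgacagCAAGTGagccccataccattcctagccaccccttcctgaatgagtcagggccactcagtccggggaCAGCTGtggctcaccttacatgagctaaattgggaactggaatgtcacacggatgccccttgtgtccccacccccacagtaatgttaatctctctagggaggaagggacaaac
Fbxo40, chr16:36990468-36990717, minus strand: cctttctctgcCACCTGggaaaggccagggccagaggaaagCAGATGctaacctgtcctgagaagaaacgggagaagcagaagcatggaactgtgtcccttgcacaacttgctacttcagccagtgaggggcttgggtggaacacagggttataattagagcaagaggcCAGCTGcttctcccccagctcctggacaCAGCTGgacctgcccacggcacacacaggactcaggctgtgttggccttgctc

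The Foxo motif was found in Trim63 alone among the 7 windows, on the minus strand at bases 194 to 188 before the start, where it reads TGTTTAC on the printed strand. The same motif was held by 3.17% of the 32851 promoter windows of this length in the table. A half-site match lay next to it, at bases 200 to 195, without overlap. Half-sites were found in 16.1% of all windows and also stood in Trim54, at bases 222 to 217, and in the second Fbxo40 window, at bases 176 to 171. E-boxes, which 66.2% of windows hold, numbered 3 in Trim63, 2 in Trim54 and 4 in the Fbxo40 window shown. These matches describe the letters in the windows and are not measured binding sites.

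The transcripts of the Foxo factors showed no common direction. Foxo1, the factor most tied to insulin signalling, had signals of 416.0 and 322.0 in the controls and 723.6 and 477.2 after doxycycline. Its levels were 1.89 and 0.91 against 1.54 and 1.31, with both doxycycline arrays between the controls. The second probe did the same, at 1.01 and 0.17 against 0.59 and 0.66. The differences were 0.02 ± 0.48 (SE, 95% interval -1.11 to 1.16, adjusted p = 0.997 by limma) and 0.04 ± 0.45 (SE). Foxo1 read higher on the first control array than on the second, by 0.97 on the first probe. Its difference was 0.51 without control array 1 and -0.46 without control array 2, -0.09 without doxycycline array 1 and -0.07 with quantile normalization.

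Foxo3 and Foxo4 were near background. The Foxo3 probe was well above background on doxycycline array 1 alone, with signals of 2.84 and 10.4 against 18.4 and 12.0, and did not pass the filter. With no filter on dim probes its difference was 0.79 ± 0.55 (SE, 95% interval -0.44 to 2.02, adjusted p = 0.771 by limma), and no fold is given. One Foxo4 probe was well above background on control array 2 alone, with signals of 9.85 and 15.8 against 14.1 and 11.2, and both doxycycline levels below both control levels. With 1 of 2 control arrays measured, no fold is given for that probe. The other Foxo4 probe, which was well above background on control array 2 and doxycycline array 2, read -3.97 and -3.73 against -4.70 and -3.71, and its groups overlapped. Its difference was -0.36 ± 0.48 (SE, adjusted p = 0.959 by limma), -0.48 without control array 1, 0.13 without doxycycline array 1 and 0.11 with quantile normalization. At these signals the arrays could not show whether Foxo3 or Foxo4 differed.

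Across the 8 genes that passed the filter, 7 had a mean above control (45.2% of all genes did), and the median difference was 0.345, where that of all genes tested was -0.06. Both arrays after doxycycline lay above both controls for 4, Fbxo32, Trim54, Fbxo40 and Fbxo30, and lay below both for none. Of all genes 14.5% lay above and 20.8% below in this way. The same genes were lower on the first control array than on the second by a median of 0.81, against 0.08 for all genes, and the median difference without control array 1 was 0.28. Without that array 5 of the 8 had both doxycycline arrays above the remaining control, Foxo1 being added, where 28.4% of all genes did. Trim63 alone had both below that control, where 44.3% of all genes did.

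Genes known to respond to Foxo factors in muscle and other tissues had mostly higher means after doxycycline, led by Pdk4 and Bnip3. Of 30 listed genes, all tested, 0 passed the adjusted threshold and 25 had a mean above control (45.2% of all genes did). At an unadjusted p under 0.05, 7 were higher and 0 lower (3.17% and 3.89% of all genes). The groups did not overlap for 16, all higher, where 14.5% of all genes lay above and 20.8% below. The median difference was 0.59. Pdk4, a long-known Foxo target whose kinase inhibits pyruvate dehydrogenase, read 2.01 and 3.91 in the controls and 7.26 and 7.41 after doxycycline. Its difference was 4.37 ± 0.65 (SE, 20.7-fold, adjusted p = 0.165 by limma) and 3.43 without control array 1. Bnip3, a mitophagy receptor, read 4.95 and 6.02 against 8.22 and 8.03, a difference of 2.64 ± 0.49 (SE, adjusted p = 0.268) that was 2.11 without control array 1. For both genes the doxycycline arrays lay close together and well clear of the controls.

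The lysosomal protease gene Ctsl read 4.05 and 4.50 in the controls and 6.19 and 5.89 after doxycycline, a difference of 1.77 ± 0.42 (SE, adjusted p = 0.350 by limma), or 1.54 without control array 1. Txnip, which restrains glucose uptake, read 4.29 and 4.34 against 5.94 and 5.61. Its control arrays were alike, and the difference, 1.46, was 1.44 without control array 1. Irs2, an insulin receptor substrate that Foxo1 activates, read 0.60 and 0.33 against 3.44 and 1.98. It was thus higher on doxycycline array 1 than on doxycycline array 2, and the difference was 2.24 ± 0.56 (SE, adjusted p = 0.377 by limma), or 2.38 without control array 1.

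Other genes of that list are named after their values were seen. Map1lc3b and Gabarapl1, which encode autophagosome proteins, differed by 1.17 ± 0.44 and 0.99 ± 0.43 (SE), and Ddit4, an inhibitor of mTORC1, by 1.56 ± 0.49 (SE). Klf15 and the catalase gene Cat differed by 0.58 ± 0.495 and 0.43 ± 0.41 (SE). The 5 genes with a mean below control were Rictor, Bbc3, Gadd45a, Trib3 and Atg12, with differences from -0.45 to -0.01. Between controls the list read lower on the first by a median of 0.59. Its median difference without control array 1 was 0.25, against -0.11 for all genes, with 18 of 30 genes above the remaining control in both samples and 3 below (28.4% and 44.3% of all genes). The Foxo motif stood in 3 of the 30 promoter windows held for 25 of these genes (3.17% of all windows held it). Txnip, Bcl2l11 and Bbc3 carried it, with differences of 1.46, 0.60 and -0.35.

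**Figure D3:**
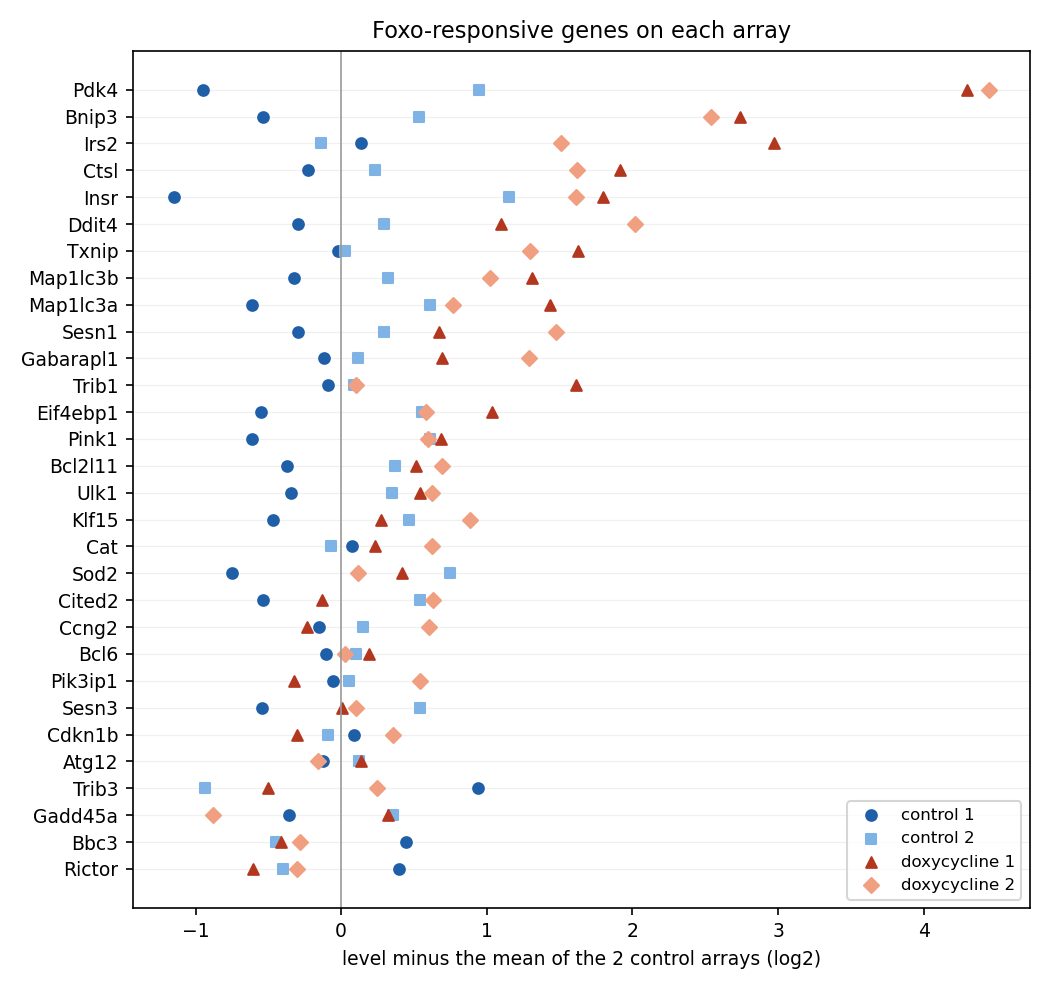
Each of the 30 Foxo-responsive genes on each of the 4 arrays (x axis: level minus the mean of the 2 control arrays, log2; y axis: gene, ordered by its difference). Both red symbols lie to the right of both blue ones for 16 genes, with Pdk4 and Bnip3 at the top, and to the left for none.

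Other ubiquitin ligases of muscle, their partners and deubiquitinases had a mixed pattern, with Cblb and Klhl40 read higher and Fbxl22 lower. Of 30 genes 29 were tested and 0 passed. At an unadjusted p under 0.05, 2 were higher and 1 lower (3.17% and 3.89% of all genes). The groups did not overlap for 11 higher and 1 lower (14.5% and 20.8% of all genes), and the median difference was 0.29. Cblb, a ligase that acts on insulin receptor substrates, read -1.96 and -1.75 in the controls and -0.35 and -0.28 after doxycycline. Replicates of Cblb were close in both groups. Its difference of 1.54 ± 0.39 (SE, 2.91-fold, adjusted p = 0.386 by limma) was 1.44 without control array 1 and 0.81 with normexp background correction. Klhl40, a Kelch protein of striated muscle, differed by 1.81 ± 0.61 (SE) and by 1.03 without control array 1. Usp19, a deubiquitinase of muscle wasting, differed by 0.87 ± 0.41 and Trim72, which takes part in membrane repair, by 1.04 ± 0.60 (SE), or 0.26 without control array 1.

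Fbxl22, which encodes a heart-enriched F-box protein of the sarcomere, went the other way from Fbxo32. It read 2.46 and 3.85 in the controls and 1.17 and 0.17 after doxycycline. All values after doxycycline were below both controls, and the difference was -2.49 ± 0.61 (SE, adjusted p = 0.367 by limma), or -3.19 without control array 1. The SCF core genes Cul1, Skp1 and Rbx1, named after their values were seen, differed by 0.65 ± 0.42, 0.58 ± 0.46 and -0.06 ± 0.45 (SE). Without control array 1 the median of the list was 0.07, with 12 of 29 genes above the remaining control on both doxycycline arrays and 11 below, where 28.4% and 44.3% of all genes were.

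Regulators of Foxo in insulin, PI3K and AMPK signalling had a median difference of -0.03 over 31 of 33 genes tested, or -0.003 without control array 1. Of these 0 passed and 15 had a mean above control (45.2% of all genes did). The groups did not overlap for 9 higher and 5 lower (14.5% and 20.8% of all genes). At an unadjusted p under 0.05, 1 was higher and 0 lower (3.17% and 3.89% of all genes). The higher gene was Irs2, which is also on the Foxo-responsive list. The Akt phosphatase gene Phlpp1 read -0.89 and -1.24 against -2.38 and -1.70, a difference of -0.98 ± 0.44 (SE), or -0.80 without control array 1. The fourth family member Foxo6 read -0.26 and 0.77 against -0.52 and -1.13, a difference of -1.08 ± 0.51 (SE, adjusted p = 0.777 by limma), or -1.59 without control array 1 and -0.57 without control array 2. In both genes the doxycycline arrays lay below the controls. Ppp2ca, a catalytic subunit of protein phosphatase 2A, differed by 0.87 ± 0.46 (SE), or 0.445 without control array 1. The acetyltransferase gene Ep300 read 0.89 on doxycycline array 1 and between -2.95 and -2.66 on the other arrays. Its difference of 1.92 ± 1.05 (SE) was 0.14 without that array and 2.06 without control array 1. The kinase genes Akt1 and Akt2, named after their values were seen, differed by -0.19 ± 0.51 and 0.31 ± 0.48, and Sgk1 by 0.46 ± 0.42 (SE).

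**Figure D4:**
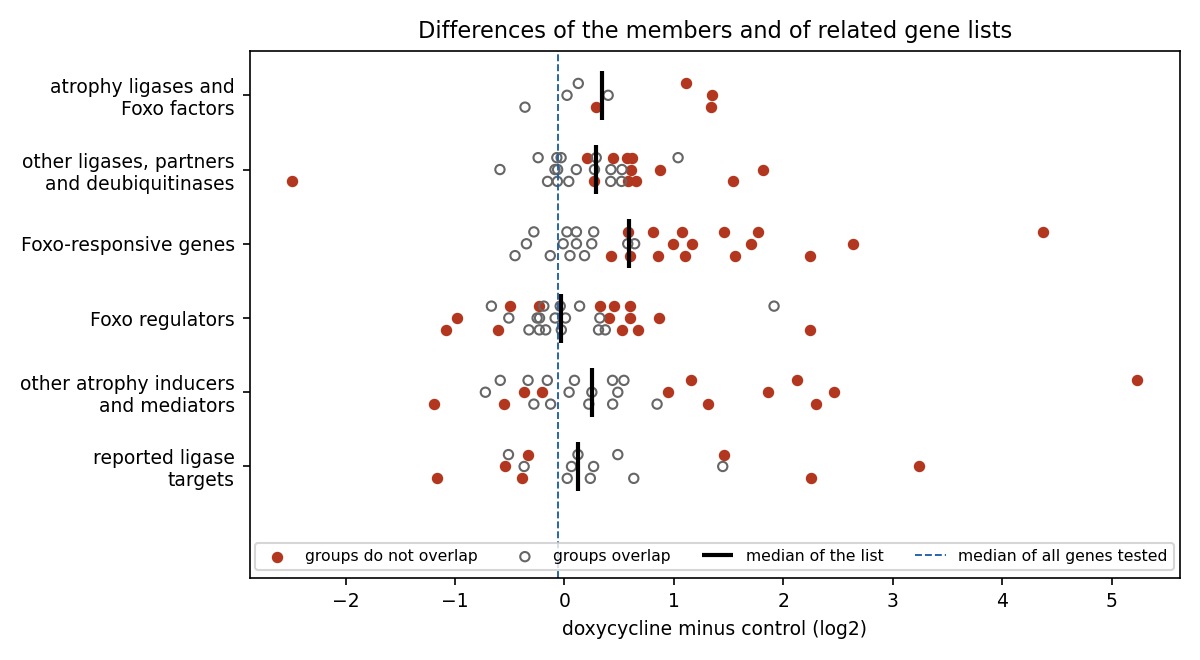
Differences (x axis: doxycycline minus control, log2) of the atrophy ligases and Foxo factors and of 5 related gene lists (y axis), 1 point per gene tested; filled points are genes whose groups do not overlap, black bars are list medians. The medians run from -0.03 for the Foxo regulators to 0.59 for the Foxo-responsive genes, beside -0.06 for all genes (dashed line).

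Among other inducers and mediators of atrophy, 27 of 31 genes were tested, 0 passed, and the median difference was 0.25. It was 0.54 without control array 1 and 0.07 without control array 2. The groups did not overlap for 8 higher and 4 lower (14.5% and 20.8% of all genes). At an unadjusted p under 0.05, 5 were higher and 1 lower (3.17% and 3.89% of all genes). The lower gene was Nr3c1, the glucocorticoid receptor, which is known to act on Fbxo32 and Trim63. It read 3.64 and 2.85 in the controls and 1.94 and 2.17 after doxycycline, a difference of -1.19 ± 0.45 (SE, adjusted p = 0.654 by limma) that was -0.80 without control array 1. Tnfrsf12a, the receptor of the wasting cytokine TWEAK, read 1.22 and 2.62 against 4.76 and 4.01, a difference of 2.46 ± 0.58 (SE, adjusted p = 0.350 by limma), or 1.77 without control array 1. Fstl3, an antagonist of activin and myostatin, differed by 1.86 ± 0.56 (SE), or 1.72 without control array 1 and 1.13 without doxycycline array 1. The metallothionein genes Mt1 and Mt2, which are known to be abundant in wasting muscle, differed by 2.30 ± 0.48 and 5.24 ± 0.63 (SE), or 1.80 and 4.94 without control array 1. The myostatin gene Mstn, Gdf11, Myog and Dach2 were not well above background on any array.

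Transcripts of proteins reported as targets of these ligases showed no shared direction. Of 18 genes 17 were tested and 0 passed, and the median difference was 0.12. At an unadjusted p under 0.05, 3 were higher and 0 lower (3.17% and 3.89% of all genes). The groups did not overlap for 3 higher and 4 lower (14.5% and 20.8% of all genes). Myh7, the slow myosin heavy chain, differed by 3.24 ± 0.48 (SE), Rcan1, an inhibitor of calcineurin, by 2.25 ± 0.83 and Des, which encodes the filament protein desmin, by 1.46 ± 0.54. These were 2.97, 1.84 and 0.77 without control array 1. Rcan1 was mostly high on doxycycline array 1, at 4.43 against 1.89 on doxycycline array 2, and differed by 0.98 without the former. Nfkbia, which holds NF-kappaB in the cytoplasm, differed by 1.45 ± 0.75 and Vim by -1.16 ± 0.62 (SE). One array moved each of these: Nfkbia was 0.38 without doxycycline array 1 (1.93 without control array 1), and Vim was -0.32 without control array 1 and -2.01 without control array 2. Without control array 1 the list median was -0.32, with 10 of 17 genes below the remaining control on both doxycycline arrays (44.3% of all genes).

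Among the genes whose levels over the 4 arrays were most like those of Fbxo32, by the Euclidean distance between levels centred on each gene's mean, were Saraf (distance 0.05) and Oplah (0.09). Saraf, a regulator of store-operated calcium entry, read 3.93 and 4.90 against 5.92 and 5.66. Those most like Trim63 were Samm50 (0.04), Ndufa10 (0.05) and Usp20 (0.06), of which Ndufa10, a subunit of respiratory complex I, read 4.51 and 5.86 against 5.73 and 5.40. The likeness rests on 4 arrays in 2 groups and includes the gap between the control arrays.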

How the data were processed

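RNA of isolated heart muscle cells was measured on 4 Agilent 1-colour (Cy3) arrays, 2 per group by the sample titles. Per the file headers, the deposited intensity was extracted with Agilent Feature Extraction 10.7.1.1, and the processed intensity is background-subtracted and spatially detrended on a linear scale, without normalization between arrays. The deposited files give other columns too, flags for outlying, saturated and well-above-background spots. Later steps, if any, are not given in the sources used here.

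Of 44397 spots 43020 were not controls, for 39429 probes, and 0 were saturated. The 75th percentile of the signal ranged from 112 to 248, and 50.6% to 51.8% of spots were well above background. The number of arrays limits the precision. Probes (27508) were named from their RefSeq accession through a gene table of GRCm38.p6, used for names only. The log2 signal had the array's 75th percentile subtracted, spots marked as outliers were dropped, and the remaining spots of each probe were averaged. Probes well above background on at least 2 arrays were kept, and the brightest stood for a gene. A probe with several spots was above background if at least 0.5 of them were.

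The two-sided test was that of limma 3.58.1 in R 4.3.3 (lmFit and eBayes, 4.69 prior and 2 residual degrees of freedom), with Benjamini-Hochberg adjustment over 12542 genes and a threshold of 0.05. An exact permutation test of 2 arrays against 2 cannot go below p = 0.333. The fit was tested on simulated arrays with 200 changed genes. It found 8.1% of changes of log2 size 2, 57.8% of size 3 and 87.7% of size 4. The differences of all members tested were smaller than 2, so a member that did not pass may still have differed. Promoter windows were searched in Python 3.11.15. The text names every member, up to 5 genes per list with the smallest p, and the 3 genes most like Fbxo32 and Trim63, of which 1 is not reported here. Members and lists were chosen with earlier results of these data known. Alternatives were the background correction (normexp, on the median signal), scaling, dim-probe filter, probe rule, variance model, array weights, replicate block and each array left out in turn.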

Additional observations from a re-analysis of the deposited data

How the results depend on the processing

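No member passed the threshold of limma under any of the 15 alternatives. Fbxo32 (0.87 to 1.81), Trim54 (0.65 to 2.05), Fbxo40 (0.17 to 1.78) and Fbxo30 (0.11 to 0.64) kept their direction in all 15, and their adjusted p values ranged from 0.101 to 1. With each array left out in turn the difference ran from -0.25 to 1.05 for Trim63, from -0.21 to 0.465 for Trim55, from -0.46 to 0.51 for Foxo1 and from -0.855 to 0.13 for Foxo4. Directions also turned with normexp background correction (Trim55, -0.08) and quantile normalization (Foxo1, -0.067, and Foxo4, 0.11). Scaling to the median moved the median of all genes from -0.06 to 0.29, called 128 of all genes (95 higher, 33 lower) and 6 of the list genes, and left Foxo4 at -0.01. With each array left out, 0 to 171 genes and 0 to 7 list genes were called: 0 without either control array, 32 genes when doxycycline array 1 was dropped and 171 when array 2 of that group was, and the lone sample is then assumed to vary like the other group. The prior degrees of freedom were 1013 in both of the last fits and 4.69 in the main fit. They were 16.45 with scaling to the median and infinite with the replicate number as a block. The cause was not tested. The replicate number as a block called 295 genes and 10 list genes and changed no member's call. Arrays with the same number deviated from their group means with a correlation of -0.085, so the number was not taken to pair them. Without control array 1, chosen after seeing the data as an alternative for the counts of non-overlapping groups, 5 members in place of 4 and 18 Foxo-responsive genes in place of 16 lay above control, while the share of all genes went from 14.5% to 28.4%. Signals near background limit what Foxo3, Foxo4 and Fbxo40 can show.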
